A study of Mus musculus with 20 samples.

Results

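The mitochondrial genome transcripts are the features whose symbol begins with mt-: 13 mRNAs, 2 ribosomal RNAs (rRNAs) and 22 transfer RNAs (tRNAs), or 37 genes in all. All 37 were listed in the small RNA table, which holds 26278 features. The RNA-seq table holds 29692 features and lists 22 of the 37, namely the 13 mRNAs, the 2 rRNAs and 7 tRNAs. The genes were chosen by name and not by their values. RefSeq coordinates on the GRCm38 mitochondrial chromosome (MT) were matched for all 37.

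The cells were mouse embryonic stem cells grown in 10% fetal bovine serum with leukemia inhibitory factor, a medium that all groups shared. Flow sorting separated 3 states. State 3 had low levels of Nanog and of Sox2, which are transcription factors that keep the cells pluripotent. State 2 had low Nanog with high Sox2, and state 1 had high levels of the 2 factors. The 4th group was the total population, and the labels do not say whether it was passed through the sorter. The labels also do not name the cell line or strain, the age of the cultures, or the means by which the 2 factors were read in living cells. RNA-seq of rRNA-depleted RNA covered 12 libraries, 3 per group, and small RNA sequencing covered 8 other libraries, 2 per group. The deposited tables give 1 merged value per feature and group, so no value below has a spread between libraries.

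The mitochondrial genome is a small circle that is transcribed from both strands into long precursors. Genes for tRNAs lie between most of the rRNA and mRNA genes, and the enzymes RNase P and RNase Z cut the precursors at the ends of the tRNAs to free the other RNAs. The genes have no introns, and nearly all of the mRNAs are copied from the same strand, with mt-Nd6 as the exception. The mRNAs encode core subunits of respiratory complexes I, III, IV and V, and the rRNAs and tRNAs serve the ribosomes that translate them inside the organelle.

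Values are the authors' normalised signals, with column totals of 16.9 to 17.7 M for RNA-seq and 2.61 to 5.13 M for small RNA. The low value that recurs most often in a column stands for about 1 read, and it was 0.28 to 0.36 for RNA-seq and 0.31 to 0.74 for small RNA. The sort markers followed the labels: Nanog stood at 440.0 in state 3, 743 in state 2, 4145 in state 1 and 2783 in the total population, and Sox2 stood at 1306 in state 3, 3167 in state 2, 4155 in state 1 and 3954 in the total population. All 7 of 7 embryonic stem cell markers were present in every group, with summed levels of 20504 in state 3, 29957 in state 2, 51238 in state 1 and 42332 in the total population. Of 10 feeder fibroblast markers 8 were in the table, with summed levels of 1231.1 in state 3, 213 in state 2, 101 in state 1 and 225 in the total population. Each of the 8 was highest in state 3, by unequal margins. Col1a1, the largest part of the state 3 sum, stood at 827 in state 3, 107 in state 2, 23 in state 1 and 112 in the total population. Thy1 stood at 59.29 in state 3, 42.05 in state 2, 42.23 in state 1 and 43.13 in the total population. Dcn was listed at 0 in state 1 and Lum was listed at 0 in state 2, and the other fibroblast markers in the table were above 0 in every group. In these bulk samples a smaller number of cells of a type and less RNA per cell cannot be told apart.

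A difference between 2 groups was called when the posterior probabilities of all patterns that set the groups apart, added here from the authors' 15 pattern scores, reached 0.95. Below, a feature or gene is said to rise or fall only where it was called, so others may differ in value without a call. Log2 ratios are log2((value + 1)/(value + 1)). Nothing in the labels places the libraries of a group in separate cultures, and the spread behind the posteriors may thus be technical.

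In the RNA-seq table the 13 mitochondrial mRNAs were called in none of the 6 comparisons, while mt-Rnr1, the RNA of the small ribosomal subunit, was higher in state 3. Between state 3 and state 1, 1 of the 22 listed members was called, where 20.4% of all features were (35.5% of those with a mean of at least 5, a level the 13 mRNAs and 2 rRNAs reach). Between state 2 and state 1, 0 members were called, where 13.4% of all features were (23.6%). Between state 3 and state 2, 1 member was called, where 8.59% of all features were (15%). The counts against the total population were 1 for state 3, 0 for state 2 and 0 for state 1, where 19.1%, 11.1% and 1.98% of all features were called. In the authors' deposited table the posterior for equal levels in all 4 groups lay between 0.986 and 0.999 for the 13 mRNAs.

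The complex I subunits are encoded by 7 of these genes. mt-Nd1 stood at 22688 in state 3, 23801 in state 2, 22557 in state 1 and 27223 in the total population. mt-Nd2 stood at 4402 in state 3, 4645 in state 2, 2955 in state 1 and 3057 in the total population. The state values of mt-Nd1 lay close together, whereas those of mt-Nd2 were higher in states 3 and 2 than in the other groups. mt-Nd3, a short subunit gene, stood at 1858 in state 3, 2055 in state 2, 1985 in state 1 and 2087 in the total population. mt-Nd4 stood at 15266 in state 3, 14901 in state 2, 8364 in state 1 and 12308 in the total population. mt-Nd4 had the largest log2 ratio of the 13 mRNAs for state 3 against state 1, 0.87, and was not called, with a posterior of 0.002. mt-Nd4l, whose reading frame overlaps the start of mt-Nd4, stood at 1260 in state 3, 991 in state 2, 692 in state 1 and 1142 in the total population. mt-Nd5 stood at 9290 in state 3, 8680 in state 2, 6142 in state 1 and 6764 in the total population. State 1 was the lowest group for mt-Nd2, mt-Nd4, mt-Nd4l and mt-Nd5, and by a small margin for mt-Nd1. mt-Nd6, the mRNA copied from the other strand, stood at 1574 in state 3, 1263 in state 2, 1573 in state 1 and 1862 in the total population, and was lowest in state 2.

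mt-Cytb encodes cytochrome b, the subunit of complex III that carries its quinone sites. It stood at 23831 in state 3, 22566 in state 2, 17188 in state 1 and 24340 in the total population, and was lowest in state 1.

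Complex IV, cytochrome c oxidase, takes its catalytic core from mt-Co1, mt-Co2 and mt-Co3. mt-Co1 stood at 89539 in state 3, 88644 in state 2, 92664 in state 1 and 101757 in the total population. mt-Co2 stood at 4418 in state 3, 5615 in state 2, 3305 in state 1 and 4257 in the total population. mt-Co3 stood at 4839 in state 3, 5004 in state 2, 4536 in state 1 and 4316 in the total population. The 3 genes did not share an order of the groups: mt-Co1 was highest in the total population, and mt-Co2 and mt-Co3 were highest in state 2.

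The ATP synthase, complex V, has mt-Atp6 and mt-Atp8 as its mitochondrially encoded subunits. mt-Atp6, which lines the proton channel, stood at 7653 in state 3, 7534 in state 2, 4683 in state 1 and 6632 in the total population. mt-Atp8 stood at 1015 in state 3, 891 in state 2, 596 in state 1 and 959 in the total population. Both were lowest in state 1.

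**Figure D1:**
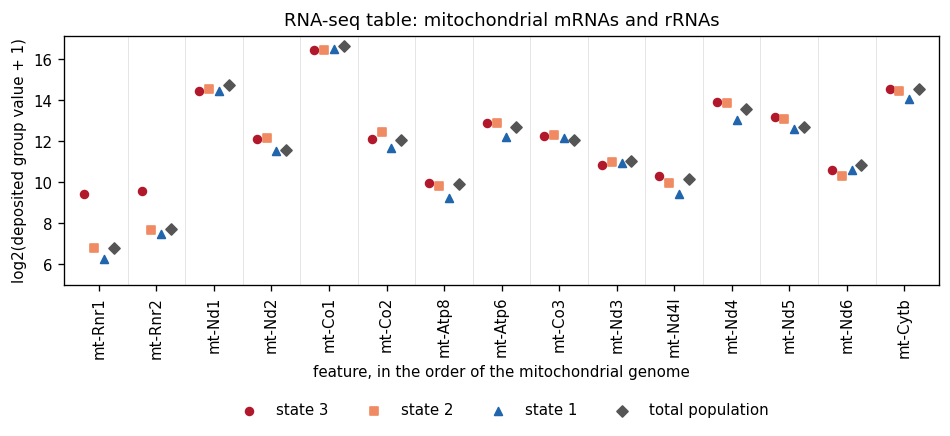
Deposited RNA-seq values of the 13 mitochondrial mRNAs and 2 rRNAs, on the vertical axis as log2(value + 1), in the order of the mitochondrial genome along the horizontal axis. Each point is 1 merged group value: the mt-Rnr1 point of state 3 (684) stands above those of the other groups (76.6 to 110.3), while the 4 points of each mRNA lie near each other.

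State 1 was the lowest group for 9 of the 13 mRNAs. The median log2 ratio of the 13 was 0.47 between state 3 and state 1 and 0.50 between state 2 and state 1 (the first named over the second), beside medians of -0.0049 and -0.0026 over all features with a mean of at least 5. For state 3 against state 2 it was 0.02, with a sign that turned under scaling to the column total (-0.01). None of these ratios passed the threshold of the authors' model, and these comparisons between states share libraries. Summed over the 13 mRNAs the values were 187632 in state 3, 186591 in state 2, 167240 in state 1 and 196703 in the total population.

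Per kilobase of RefSeq gene length, the mean level over the 4 groups was 60292 for mt-Co1, 25149 for mt-Nd1 and 19214 for mt-Cytb. mt-Atp6 (9729) and mt-Nd4 (9223) followed. The remaining 8 mRNAs lay between 3021 per kilobase for mt-Nd6 and 6431 for mt-Co2. These levels divide by the whole gene length, since the sources used here do not give the lengths the authors may have used, and they are least sure for the short genes mt-Atp8 (204 bases) and mt-Nd4l (297 bases).

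mt-Rnr1 (MT, positions 70 to 1024) stood at 684 in state 3, 109 in state 2, 76.6 in state 1 and 110.3 in the total population. State 3 was high and the other groups lay between 76.6 and 110.3. The log2 ratio of state 3 was 3.14 over state 1 (posterior 0.989), 2.64 over state 2 (posterior 0.971) and 2.62 over the total population (posterior 0.988), and all were called at 0.95 and none at 0.99. For state 2 against state 1 it was 0.50, with a posterior of 0.044. mt-Rnr2 (MT, positions 1094 to 2675), the RNA of the large ribosomal subunit, stood at 777 in state 3, 200.3 in state 2, 180.8 in state 1 and 211 in the total population. It showed the same order of levels, with a log2 ratio of 2.10 for state 3 against state 1, but was not called (posterior 0.304).

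The library kit removes rRNA with capture oligonucleotides, so these RNA-seq values are what was left after depletion and do not measure the rRNA content of the cells. The 29 nuclear features of rRNA type in the same table summed to 6279 in state 3, 4741 in state 2, 5473 in state 1 and 3764 in the total population. Only 1 of the 29 had a mean of at least 5, so this sum rests almost wholly on 1 feature. The 2 mitochondrial rRNAs summed to 1461 in state 3, 309 in state 2, 257 in state 1 and 322 in the total population, a fold of 5.68 for state 3 against state 1. A part of depletion in this difference was not tested, nor was that of the fibroblast markers, which were also highest in state 3.

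The 7 tRNAs in the RNA-seq table were at or near the floor. mt-Tm, the methionine tRNA, had the highest values of the class, with 1.80 in state 3, 0.32 in state 2, 0.96 in state 1 and 0.34 in the total population. Every other value of the 7 was at most 0.67. A listing at 0 allows up to 3 reads over the group, or 0.84 to 1.08 in value, for counting error only, so no ratio was read from these genes and differences between groups were not detectable at this depth.

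Mitochondrial features made up 1.09% of the RNA-seq column total in state 3, 1.10% in state 2, 0.945% in state 1 and 1.15% in the total population. In the small RNA table the shares were 3.10% in state 3, 1.10% in state 2, 0.960% in state 1 and 1.59% in the total population. By share of the column, state 3 thus stood apart in the small RNA table and not in the RNA-seq table. As deposited, the 37 members summed there to 80959 (state 3), 37757 (state 2), 49225.5 (state 1) and 66026 (total population) in the small RNA table. Without the rRNAs, the sums of state 3 (33048) and the total population (33780) were nearly level, above state 2 (14536) and state 1 (22207). Within the small RNA share, rRNA took 1.84% of the column in state 3, 0.678% in state 2, 0.527% in state 1 and 0.777% in the total population. The tRNAs took 0.744% in state 3, 0.283% in state 2, 0.290% in state 1 and 0.456% in the total population. The mRNAs took 0.522% in state 3, 0.141% in state 2, 0.143% in state 1 and 0.358% in the total population.

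**Figure D2:**
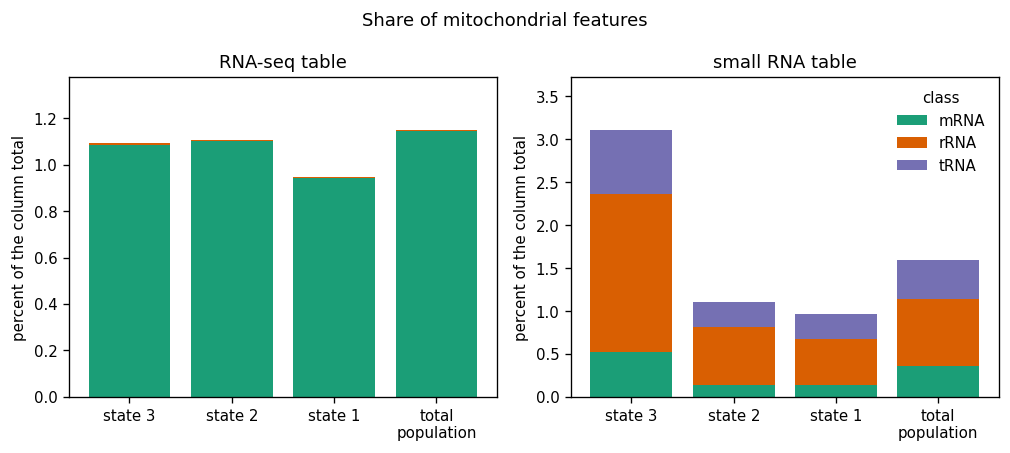
Stacked bars give the percent of the column total taken by mitochondrial mRNAs, rRNAs and tRNAs in each group, with the RNA-seq table on the left and the small RNA table on the right; the vertical axes differ. In the small RNA table the bar of state 3 reaches 3.10%, against 1.10%, 0.960% and 1.59% in state 2, state 1 and the total population.

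These shares depend on what else is in a column. The hairpin mmu-mir-292a, the most abundant feature of the small RNA table outside the mitochondrial genes, took 16.5% of the column in state 3, 30.2% in state 2, 36.2% in state 1 and 33.4% in the total population. The 174 nuclear features of rRNA type in that table took 25.7% in state 3, 10.4% in state 2, 7.82% in state 1 and 10.7% in the total population. The summed level of 6 immediate-early genes in the RNA-seq table, Fos among them, was 4418 in state 3, 2751 in state 2, 1183 in state 1 and 1565 in the total population. The part of the rRNA fragments and of the immediate-early genes in the mitochondrial result was not tested.

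In the small RNA table, where a value counts short pieces of a transcript rather than whole mRNAs, some mitochondrial mRNAs and tRNAs were called higher in state 3 than in state 1 or state 2. Set against state 1, 9 of 37 members rose in state 3 and 1 fell, while 0.552% of all features rose and 1.08% fell. Set against state 2, 14 of 37 rose in state 3 and 0 fell, while 0.304% of all features rose. In state 2 against state 1, 0 rose and 4 fell, while 0.468% of all features fell. These counts depend on the order in which the pattern columns list the groups, which was inferred from the values. With state 1 and the total population exchanged in that order, 0 members rose and 1 fell for state 3 over state 1, and 0 rose and 14 fell for state 2 over state 1, while 14 rose for state 3 over state 2 under both orders. All 37 members had a mean of at least 5. Among the features with such a mean, 2.16% rose and 4.2% fell in state 3 against state 1, 1.16% rose in state 3 against state 2, and 1.82% fell in state 2 against state 1.

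The calls of state 3 against state 1 were spread over 6 mRNAs and 3 tRNAs that rose and 1 mRNA that fell. Those of state 3 against state 2 were 9 mRNAs and 5 tRNAs. The 2 rRNAs were called in no comparison of this table. The median log2 ratio of the 13 mRNAs was 0.93 for state 3 over state 1 and 1.41 for state 3 over state 2, and that of the 22 tRNAs was 0.49 and 1.06. Over all features with a mean of at least 5 the medians of these comparisons were 0.01 and 0.0084. For state 2 against state 1 the mRNA median was -0.46 as deposited and 0.12 after scaling to the column total, so its direction depends on the scaling. The tRNA median of that comparison was -0.63 as deposited and -0.07 after that scaling.

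Pieces of nuclear mRNAs were nearly level over the groups in sum as deposited, but not by share of the column. The 16061 nuclear features of protein-coding type in the small RNA table summed to 225982 in state 3, 212825 in state 2, 226374 in state 1 and 215891 in the total population. They took 8.66% of the column in state 3, 6.21% in state 2, 4.42% in state 1 and 5.20% in the total population. The 13 mitochondrial mRNAs summed to 13620 in state 3, 4831 in state 2, 7322 in state 1 and 14840 in the total population. For state 3 against state 1 the median log2 ratio of the 5362 nuclear protein-coding features with a mean of at least 5 was 0.09. The 77 nuclear features of rRNA type with such a mean had a median of -0.51 in that comparison. Of all 174 nuclear features of that type 0 rose and 3 fell there, and the sum over the 174 was 671217 in state 3, 357040 in state 2, 400887 in state 1 and 442661 in the total population.

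Among the complex I genes, mt-Nd5 stood at 2102 in state 3, 777 in state 2, 1101 in state 1 and 2304 in the total population. mt-Nd1 stood at 1187 in state 3, 502 in state 2, 691 in state 1 and 1133 in the total population. mt-Nd4 stood at 1180 in state 3, 418 in state 2, 564 in state 1 and 1160 in the total population. For these genes state 3 and the total population lay close together, and both lay above state 1 and state 2. The log2 ratios for state 3 against state 1 were 0.93 for mt-Nd5, 0.78 for mt-Nd1 and 1.06 for mt-Nd4, and all 3 rose. mt-Nd6, the mRNA of the other strand, stood at 485 in state 3, 182 in state 2, 242 in state 1 and 575 in the total population. It rose as well, with a log2 ratio of 1.00 for state 3 over state 1 and 1.41 for state 3 over state 2, and state 3 and the total population lay above the other groups for this strand too. mt-Nd2 stood at 901 in state 3, 406 in state 2, 455 in state 1 and 846 in the total population, the same order, but was not called (log2 ratio 0.98 for state 3 against state 1, posterior 0.223). mt-Nd3, at 44.1 in state 3, 44.7 in state 2, 69.8 in state 1 and 80.3 in the total population, did not share that order.

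mt-Co1, the catalytic subunit of complex IV, stood at 4066 in state 3, 1412 in state 2, 1885 in state 1 and 4060 in the total population. State 3 and the total population were level and state 2 was lowest. The log2 ratio was 1.11 for state 3 over state 1 and 1.53 for state 3 over state 2, and both were called. mt-Cytb stood at 1208 in state 3, 572 in state 2, 778 in state 1 and 1179 in the total population, and rose for state 3 against state 2 with a log2 ratio of 1.08. Its log2 ratio of 0.63 for state 3 against state 1 was not called (posterior 0.914).

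mt-Co2 and mt-Co3 differed from the rest by their values in state 2. mt-Co2 stood at 118 in state 3, was listed at 0 in state 2, and stood at 581 in state 1 and 282 in the total population. mt-Co3 stood at 762 in state 3, 0.27 in state 2, 299 in state 1 and 981 in the total population. The value of mt-Co3 in state 2 lay below the commonest low value of that column, 0.37, and a listing at 0 there allows up to 3 reads, or 1.11, so no fold against state 2 is given for either gene. Both were called lower for state 2 against state 1. mt-Co2 was also the only member that fell for state 3 against state 1, with a log2 ratio of -2.29, and the only one called for state 3 against the total population, where it was lower (log2 ratio -1.25) and 0.986% of all features fell. In the RNA-seq table neither gene was near 0 in state 2, as given above. Missing small RNA reads of these genes in state 2 and an assignment of such reads to copies elsewhere in the genome cannot be told apart from these tables. Without these 2 genes, a count added after the values were seen, 2 members rather than 4 fell for state 2 against state 1, and 12 rather than 14 rose for state 3 against state 2.

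mt-Atp6 stood at 830 in state 3, 108 in state 2, 206 in state 1 and 1090.0 in the total population. It had the largest rise of the mRNAs for state 3 against state 1, a log2 ratio of 2.01, but its reads may be shared with a nuclear copy, as described below. mt-Atp8, whose frame overlaps mt-Atp6, stood at 425 in state 3, 278 in state 2, 224 in state 1 and 430.3 in the total population and was not called. mt-Nd4l stood at 314 in state 3, 130.0 in state 2, 226 in state 1 and 721 in the total population, and was called lower for state 2 against the total population only.

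**Figure D3:**
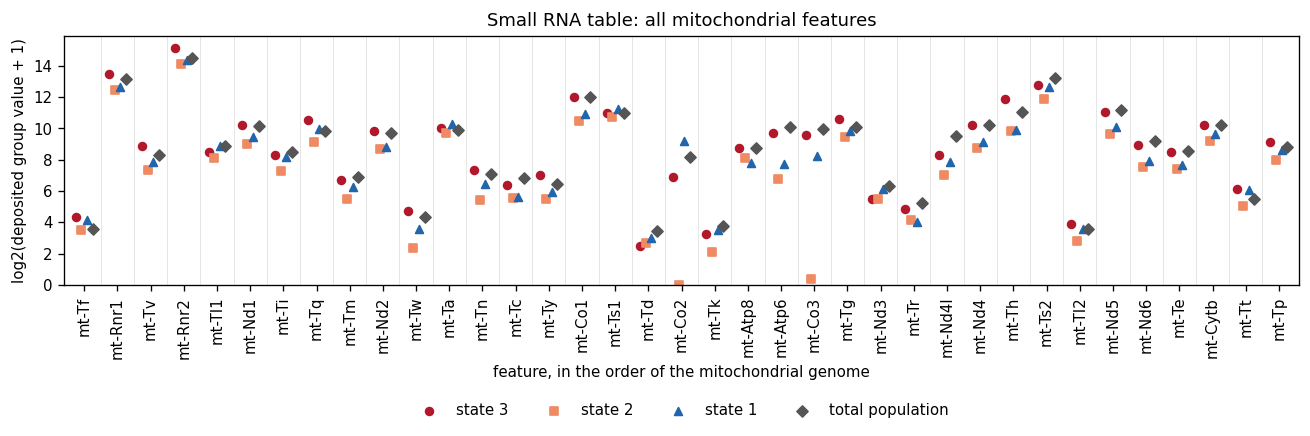
Deposited small RNA values of all 37 mitochondrial features, on the vertical axis as log2(value + 1), in the order of the mitochondrial genome along the horizontal axis. Each point is 1 merged group value, and mt-Co2 and mt-Co3 are at or near 0 in state 2. As deposited, state 2 is the lowest point for 33 of 37 features, a count that depends on the scaling.

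Pieces of rRNA were the largest class of mitochondrial signal in the small RNA table in every group. mt-Rnr2 stood at 36369 in state 3, 17532 in state 2, 20780 in state 1 and 23036 in the total population. mt-Rnr1 stood at 11543 in state 3, 5690 in state 2, 6238 in state 1 and 9209 in the total population. Together they held 59.2% of the mitochondrial signal in state 3, 61.5% in state 2, 54.9% in state 1 and 48.8% in the total population. The log2 ratios for state 3 against state 1, 0.81 for mt-Rnr2 and 0.89 for mt-Rnr1, were of the size of those of the called mRNAs, but neither was called. The posterior for that comparison was 0.010 for mt-Rnr1 and 7.8e-05 for mt-Rnr2.

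Among the tRNAs, mt-Th, the histidine tRNA (MT, positions 11546 to 11612), stood at 3820 in state 3, 916 in state 2, 963 in state 1 and 2087 in the total population. State 3 was high, the total population was between, and states 2 and 1 were nearly level. It had the largest called rise of a tRNA in both comparisons of state 3 with a sorted state, with a log2 ratio of 1.99 against state 1 and 2.06 against state 2. mt-Tv, the valine tRNA that lies between the 2 rRNA genes (MT, positions 1025 to 1093), stood at 457 in state 3, 158 in state 2, 227 in state 1 and 313 in the total population. It rose in both comparisons, with a log2 ratio of 1.00 against state 1 and 1.53 against state 2, whereas the rRNAs on its either side were not called. mt-Tn, the asparagine tRNA, stood at 158.9 in state 3, 42.3 in state 2, 87.3 in state 1 and 133 in the total population. It was called in all 3 comparisons between states: the log2 ratio was 0.86 for state 3 over state 1, -1.03 for state 2 over state 1 and 1.88 for state 3 over state 2.

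The remaining 2 called tRNAs were set apart by state 2. mt-Ti, the isoleucine tRNA, stood at 311 in state 3, 153 in state 2, 290.2 in state 1 and 362 in the total population. It fell for state 2 against state 1 (log2 ratio -0.92) and rose for state 3 against state 2 (1.01). mt-Tm, the methionine tRNA, stood at 103 in state 3, 43.2 in state 2, 74.4 in state 1 and 118 in the total population, and rose for state 3 against state 2 (1.24).

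The most abundant tRNAs were not among those called, apart from mt-Th. mt-Ts2, a serine tRNA that lacks the D arm, stood at 6840 in state 3, 3754 in state 2, 6385 in state 1 and 9312 in the total population. mt-Ts1, the other serine tRNA, stood at 2024 in state 3, 1709 in state 2, 2421 in state 1 and 2018 in the total population. mt-Ts1 was highest in state 1 and mt-Ts2 in the total population, and state 2 was lowest for both. Among members not called, the largest ratio between states belonged to mt-Tw, the tryptophan tRNA. It stood at 25.8 in state 3, 4.22 in state 2, 10.7 in state 1 and 18.9 in the total population, a log2 ratio of 2.36 for state 3 against state 2 with a posterior of 0.002. mt-Tk, the lysine tRNA, was also low, at 8.63 in state 3, 3.35 in state 2, 10.4 in state 1 and 12.8 in the total population, and its log2 ratio of -1.39 for state 2 against state 1 was not called. The other 13 tRNAs had group values between 4.61 and 1529.

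Among the mitochondrial members, the highest small RNA levels per kilobase of gene length were those of some tRNAs. Means over the groups were 111403 per kilobase for mt-Ts2, 29608 for mt-Ts1 and 29050 for mt-Th, against 15442 for mt-Rnr2 and 8555 for mt-Rnr1. The mRNAs lay between 172 for mt-Nd3 and 1848 for mt-Co1. The tRNAs spanned a wide range themselves, down to 95.1 per kilobase for mt-Td, the aspartate tRNA.

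The tRNAs of both strands had positive medians in state 3. The 8 tRNAs of the strand that also encodes mt-Nd6 had a median log2 ratio of 0.68 for state 3 over state 1 and 1.09 for state 3 over state 2. The 14 tRNAs of the other strand had medians of 0.24 and 1.06. Of the 5 called tRNAs, mt-Tn belongs to the first strand and the others to the second. No test of a difference between strands was made.

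Across the 37 members, state 2 was the lowest group for 33 as deposited, with mt-Nd3, mt-Atp8, mt-Tr and mt-Td as the exceptions. That count depends on the scaling. For state 2 against state 1 the mRNA median was -0.46 as deposited and 0.12 after scaling to the column total. By share of the column the members took 1.10% in state 2 and 0.960% in state 1. As deposited, state 3 and the total population were both above state 2 and state 1 for 27 members, of which 11 were mRNAs, 14 tRNAs and 2 rRNAs. The pattern with the highest posterior in the authors' deposited table, as its 15 patterns were read here, set state 3 and the total population equal and apart from an equal pair of state 2 and state 1 for 9 members. These were mt-Atp6, mt-Co1, mt-Cytb, mt-Nd1, mt-Nd4, mt-Nd5, mt-Nd6, mt-Tc and mt-Th, and 5 of them had a posterior of at least 0.95 for it. Equal levels in all groups was the leading pattern for 18 members, 8 of them at 0.95 or more.

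For 15 of the 37 members the total population was the highest group as deposited, above each sorted state. This count too depends on the scaling. For state 3 against the total population the mRNA median was -0.13 as deposited and 0.54 after scaling to the column total. In state 2 against the total population 14 members fell and 0 rose, while 0.396% of all features fell. With state 1 and the total population exchanged in the pattern order, 4 fell and 0 rose in that comparison. In state 1 against the total population 6 fell, all mRNAs, and mt-Co2 rose, while 0.0989% of all features fell and 0.0951% rose. Since the sorted groups and the total population may differ in handling as well as in composition, these cannot be told apart here.

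Set side by side, most mRNAs had the same direction in the 2 tables between state 3 and state 1, and most had opposite directions between state 2 and state 1. The libraries behind the tables were separate. In state 3 against state 1, 10 of the 13 mRNAs were higher in both tables and 1, mt-Nd3, was lower in both. The 10 include mt-Nd1 and mt-Nd6, which were level in the RNA-seq table (log2 ratios 0.008 and 0.00098). With median-of-ratios size factors these 2 ratios were -0.007 and -0.015. For state 2 against state 1, 10 of the 13 were higher in the RNA-seq table and lower in the small RNA table, a count that holds for the values as deposited, since the small RNA median of this comparison turned positive when scaled to the column total. mt-Nd4 shows the contrast: its log2 ratio for state 2 against state 1 was 0.83 in the RNA-seq table and -0.43 in the small RNA table, and neither was called. mt-Co1 differed little between states in the RNA-seq table (log2 ratio -0.05 for state 3 against state 1) and rose in the small RNA table (1.11).

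**Figure D4:**
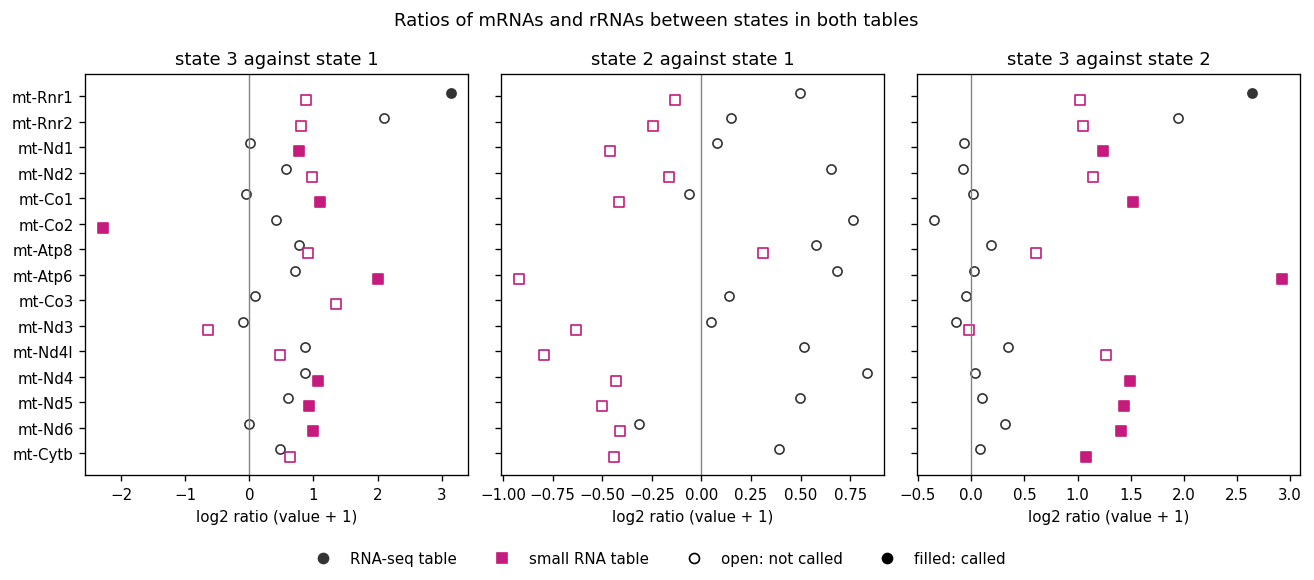
Log2 ratios of the 13 mRNAs and 2 rRNAs between states in the RNA-seq table (circles) and the small RNA table (squares), filled where called; the horizontal axes differ between panels. Small RNA mt-Co2 and mt-Co3 are left out of the panels with state 2, where they stood at 0 and 0.27; the called RNA-seq ratios are those of mt-Rnr1 (3.14 and 2.64).

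Copies of mitochondrial DNA in the nuclear genome can take reads from the mitochondrial genes or give them reads. Gm10925 (GRCm38 chromosome 1, positions 24613971 to 24614651) has mt-Atp6 as a RefSeq synonym and is 681 bases long, as is mt-Atp6 itself (MT, positions 7927 to 8607). Gm10222 (chromosome 1, positions 24612404 to 24612700) is 297 bases long, the length of mt-Nd4l (MT, positions 9877 to 10173), and RefSeq gives it no such synonym. The starts of the copies lie 1567 bases apart and the ends facing them in the mitochondrial genome 1566, in inverted order. The sources used here do not say how the authors divided reads between such copies, so the values of the members of both pairs are uncertain. Other abundant features of the unprocessed pseudogene type are not in the RefSeq table, so whether further members share reads with them is not known here. Gm28661 stood at 27471 in state 3, 25675 in state 2, 18491 in state 1 and 24395 in the total population in the RNA-seq table, and at 2125 in state 3, 899 in state 2, 484 in state 1 and 1771 in the total population in the small RNA table. Gm28437 stood at 15782 to 18082 over the groups in the RNA-seq table and at 419 to 841 in the small RNA table, where Gm28438 stood at 2832 to 3958.

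In the RNA-seq table Gm10925 stood at 8955 in state 3, 9635 in state 2, 5287 in state 1 and 8286 in the total population. It held 53.9% of the sum of the pair in state 3, 56.1% in state 2, 53.0% in state 1 and 55.5% in the total population, an even division over the groups. In the small RNA table it stood at 259 in state 3, 532 in state 2, 398 in state 1 and 93.4 in the total population. There it held 23.8% of the pair in state 3, 83.1% in state 2, 65.9% in state 1 and 7.90% in the total population. For mt-Atp6 in the small RNA table, the division with its copy thus changed with the group. The pair together stood at 1089 in state 3, 640 in state 2, 604 in state 1 and 1183 in the total population. The sum still had a higher level in state 3 than in state 1, but its log2 ratio was 0.85, against 2.01 for mt-Atp6 alone, and for state 2 against state 1 it was 0.08, against -0.92 alone.

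The division of mt-Nd4l and Gm10222 differed mainly between the states and the total population. Gm10222 held 68.1% of the pair in the small RNA table in state 3, 77.6% in state 2, 62.3% in state 1 and 11.8% in the total population. The pair together stood at 982 in state 3, 580 in state 2, 600 in state 1 and 818 in the total population, so the excess of the total population over state 3 seen for mt-Nd4l alone was not seen in the sum. In the RNA-seq table the copy held 35.0% to 41.7% of the pair. Outside the stretch between mt-Atp6 and mt-Nd4l, which holds 6 of the 37 members, 8 of 31 members rose and 1 fell for state 3 against state 1, and 12 rose for state 3 against state 2. The stretch was set by Gm10925 and Gm10222 alone, so members outside it may still share reads with other copies. Gm28661 itself was called higher in the small RNA table for state 3 against state 1 (log2 ratio 2.13).

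**Figure D5:**
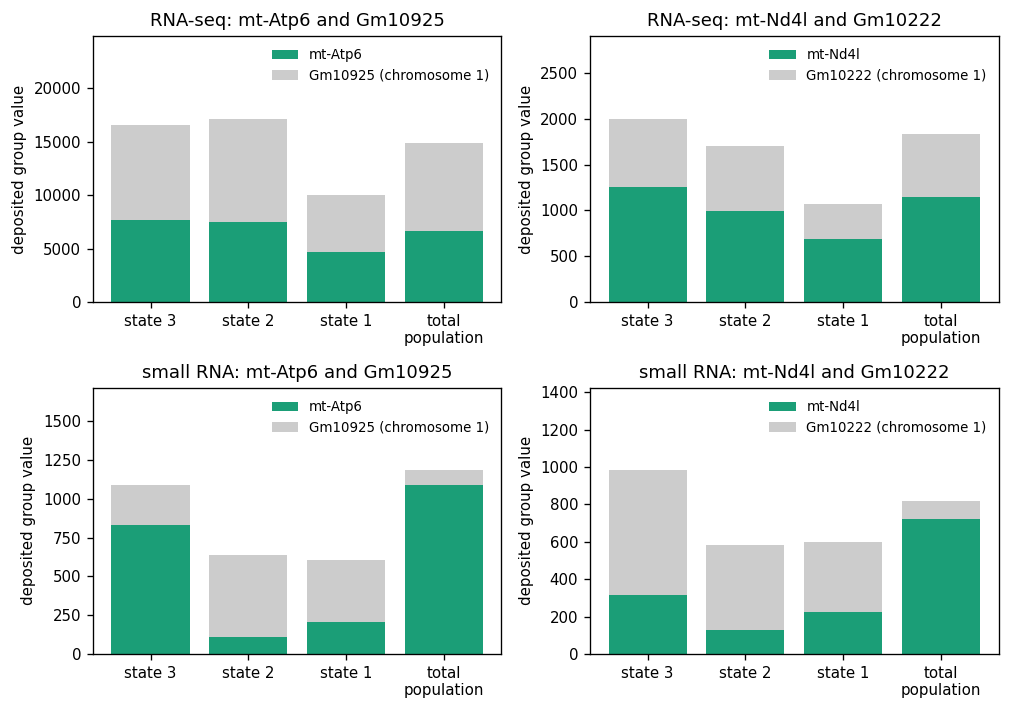
Stacked bars give the deposited values of mt-Atp6 with Gm10925 (left) and mt-Nd4l with Gm10222 (right) in each group, in the RNA-seq table (top) and the small RNA table (bottom); the vertical axes differ. In the small RNA table Gm10925 makes up 83.1% of its pair in state 2 and 7.90% in the total population, while in the RNA-seq table its share stays between 53.0% and 56.1%.

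Of the nuclear genes that replicate and transcribe the mitochondrial genome and process its RNA, some fell in state 3 and none rose. Of 63 symbols of such genes 61 were found in the RNA-seq table. Relative to state 1, 16 of the 61 fell in state 3 and 0 rose, while 9.01% of all features fell and 11.4% rose (15.8% and 19.6% of those with a mean of at least 5). In state 2 relative to state 1, 10 fell and 0 rose, while 6.33% of all features fell and 7.11% rose (11.1% and 12.5%). In state 3 relative to state 2, 4 fell and 0 rose, while 3.19% of all features fell and 5.41% rose (5.63% and 9.38%). The median log2 ratio of the 61 was -0.20, -0.13 and -0.09 in these 3 comparisons, so the changes were small.

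By role, the falls for state 3 against state 1 were in 10 of 21 RNA processing genes, 4 of 14 tRNA and rRNA modification genes, 2 of 10 transcription genes, 0 of 10 replication genes and 0 of 6 regulators. Polrmt, the mitochondrial RNA polymerase, stood at 589 in state 3, 699.6 in state 2, 810.1 in state 1 and 769 in the total population. It fell for state 3 against state 1, with a log2 ratio of -0.46. Tfam, which packages the mitochondrial genome and starts its transcription, stood at 961 in state 3, 1106 in state 2, 1089 in state 1 and 1139 in the total population and was not called. Polg, the catalytic subunit of the polymerase that replicates the genome, stood at 1348 in state 3, 1141 in state 2, 1252 in state 1 and 1151 in the total population and was not called.

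Lrpprc, which with its partner Slirp holds mitochondrial mRNAs stable, stood at 2432 in state 3, 2816 in state 2, 3172 in state 1 and 3075 in the total population. It fell in all 3 comparisons between states, with log2 ratios of -0.38 for state 3 over state 1, -0.17 for state 2 over state 1 and -0.21 for state 3 over state 2. Slirp stood at 389 in state 3, 443 in state 2, 543 in state 1 and 508 in the total population and fell for state 3 against state 1 (log2 ratio -0.48). The largest fall of the list for state 3 against state 1 was that of Fastkd1, a member of the FASTK family of mitochondrial RNA-binding proteins. It stood at 259 in state 3, 308 in state 2, 418 in state 1 and 399.6 in the total population, a log2 ratio of -0.69. Fastkd2 and Fastkd5 of that family fell by 0.48 each on the log2 scale, and in state 3 relative to state 2 they fell by 0.32 and 0.33. Prorp, the catalytic subunit of mitochondrial RNase P (listed as 1110008L16Rik), fell by 0.45 in state 3 relative to state 1 and by 0.28 relative to state 2. Among the modification enzymes, Cdk5rap1 fell by 0.56 and Qtrt1 by 0.49 for state 3 against state 1. In state 2 relative to state 1 the largest falls were those of Fastk (log2 ratio -0.48), Fastkd1 (-0.44), Hsd17b10, another subunit of RNase P (-0.39), Nsun4, an rRNA methyltransferase (-0.39), Qtrt1 (-0.36) and Slirp (-0.29). No mitochondrial mRNA was called in the table in which these nuclear genes fell.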

How the data were processed

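RNA-seq came from 12 libraries and small RNA sequencing from 8. The authors deposited 2 kinds of value in both tables: a normalised signal for every feature in every group, whose columns hold no whole counts and no common total, and a score for each of 15 ways to set the groups equal or apart, which is its posterior probability. STAR 2.4.1d and RSEM 1.2.30, with mm10 and GRCm38, are listed without a role, per the submitters' processing notes. The scaling and the merging of libraries are not given in the sources used here, and 0 columns of single libraries were left unused. No count test and no p-value was therefore possible, and the deposited RNA-seq ratios, which hold spreadsheet errors, were not used.

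Since the tables do not name the patterns, the group order state 3, state 2, state 1, total population was inferred. It placed equal groups nearer each other on average than unequal ones in 100% of 1453 RNA-seq and of 161 small RNA features whose leading pattern reached 0.95 and whose mean reached 5, while the order with state 1 and the total population exchanged did so in 96.6% and 85.7%. Differences were called at a summed posterior of 0.95 or more. Ratios used a pseudocount of 1. The summing was tested on simulated tables built with this same group order, so that test checks the sums only and not the inferred order. Python 3.11.15, numpy 2.4.6, pandas 2.3.3 and matplotlib 3.10.9 were used.

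The members, the nuclear list and the marker lists were chosen with earlier results of these data known. Values are given for the mRNAs and rRNAs, and for tRNAs called between states, among the 6 most abundant features, or with the largest or smallest ratio at a mean of at least 5. Nuclear genes are the called ones with the largest change, up to 6 per comparison and direction, with Polrmt, Tfam, Lrpprc and Polg. Fastkd4 and Tbrg4 are 1 gene, and Ppargc1a was not found. Floors cover counting error only.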

Additional observations from a re-analysis of the deposited data

How the results depend on the processing

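No paired analysis was possible because the tables hold 1 merged value per group and no column carries a replicate letter. Leaving out replicates was not run for the same reason. Medians of the RNA-seq tRNAs are not given, since nearly all of their values lie at or under the floor. Of the values that answer a comparison, 211 alternatives stayed within 1.5 times of the value reported, 22 moved further and 5 changed sign, with at least 0.1 on both sides of 0 on the log2 scale. Among the 211 are RNA-seq mRNA medians near 0 that changed sign: for state 3 against state 2, 0.02 as deposited and -0.01 under both column-total scalings, and for state 2 against the total population, -0.02 as deposited, 0.00079 and 0.00018 under those scalings and 0.03 after quantile rescaling. No called member changed sign under the scaling and pseudocount alternatives. Where no cause is named, it was not tested.

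Calls depended on the order of the patterns: with state 1 and the total population exchanged, small RNA calls were 1 rather than 10 for state 3 over state 1, 14 rather than 4 for state 2 over state 1, 10 rather than 1 for state 3 against the total population and 4 rather than 14 for state 2 against the total population. At a threshold of 0.99, 0 RNA-seq members were called when state 3 was set against state 1, state 2 or the total population, where mt-Rnr1 was called at 0.95. At 0.90 the nuclear list had 11 rather than 7 calls for state 2 against the total population. Without mt-Co2 and mt-Co3, an alternative added after the data were seen, small RNA calls were 2 rather than 4 for state 2 against state 1 and 0 rather than 1 for state 3 against the total population.

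Scaling moved small RNA medians. Dividing by the column total shifted the log2 ratios of the features with a mean of at least 5. The median shift was 0.90 between state 3 and state 1 and 0.53 between state 2 and state 1. It was 0.37 between state 3 and state 2 and 0.63 between state 3 and the total population. With that scaling, and with the mitochondrial features left out of the total, the mRNA median was 1.90 and 1.94 for state 3 against state 1 (0.93 as deposited), 0.12 and 0.12 for state 2 against state 1 (-0.46), and 0.54 and 0.56 for state 3 against the total population (-0.13, and 0.25 after quantile rescaling). The tRNA median was 1.46 and 1.49 for state 3 against state 1 (0.49), and it was 0.87 and 0.89 for state 3 against the total population (0.21). The RNA-seq shift with quantile rescaling was -0.11 for state 3 against state 1, and the mRNA median there was 0.50.

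Without the 2 rRNAs, mitochondrial features took 1.27% of the small RNA column in state 3, 0.424% in state 2, 0.433% in state 1 and 0.814% in the total population. Without mmu-mir-292a in the total, the share was 1.504% in state 1 and 2.39% in the total population. Depth limits the RNA-seq tRNAs and small RNA members with values near the floor of 0.93 to 2.22.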
